A study of Mus musculus with 4 samples.

Results

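Expression of 9 complement genes, C1qa, C1qb, C1qc, C2, C3, C4b, Cfb, Cfp and C3ar1, was followed in sorted dendritic cells of the mouse colon. The genes were taken as those complement components and receptors that gut myeloid cells are known to make, and were found by the RefSeq accession that the scanner files give for each probe. They were chosen because C2 read lower on both arrays labelled as CD300a deficient, so every comparison of the genotypes below is a description without a test. All 9 were matched, by 10 probes in all, of 20637 genes that could be named on the array.

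The cells came from the colonic lamina propria, the connective tissue beneath the gut epithelium, and were isolated by flow cytometry from C57BL/6J mice. Mice were wild type (WT) or lacked CD300a (KO), an inhibitory receptor of myeloid cells that binds phosphatidylserine on dying cells. They were kept either germ-free (GF), with no microbes, or free of specific pathogens (SPF), with an ordinary flora. This gives 4 groups, namely WT SPF, KO SPF, WT GF and KO GF, each measured on 1 single-colour Agilent array with cells of 5 mice behind it. The SPF mice are labelled female and the GF mice male, and no age is given.

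Each level below is log2 of the scanner's background-subtracted signal minus the 75th percentile of all probes of the same array, so 0 is that percentile and 1 unit is a doubling. A difference on this scale is KO minus WT, or GF minus SPF. With 1 array per group no difference between a pair of arrays has a replicate check, and the scanner software's own error for the spot is given instead, which covers the reading of the spot and not the mice. A difference of 1 or more, that is 2-fold, was used as the size for calling a gene higher or lower. Whether RNA fell because fewer cells of a type were sorted or because each cell held less cannot be told apart in such bulk RNA.

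Complement is a cascade of plasma proteins that tags microbes and dying cells for uptake, calls in leukocytes and can pierce membranes. In the classical pathway C1q binds a target and its proteases cleave C4 and C2, which form an enzyme that cleaves C3. In the alternative pathway factor B joins deposited C3 to make such an enzyme, which properdin holds together, and cleavage of C3 also frees a small peptide that C3ar1 senses. The liver makes most of the circulating proteins, whereas C1q is made mainly by macrophages and dendritic cells, and the gut also makes C3 locally.

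RefSeq promoters (build GRCm38.p6) were at hand for 5 of the 9 genes, namely C1qb, C1qc, C3, C3ar1 and Cfp. Those of C1qb and C1qc are printed because these neighbouring genes had nearly the same pattern over the 4 arrays, and that of C3 for contrast. Each is the 250 bases before the start of the gene, 5′ to 3′ on the strand of the gene, which is the minus strand in all of them. They lie at chr4:136886201-136886450 for C1qb, chr4:136892915-136893164 for C1qc and chr17:57228137-57228386 for C3. Capitals mark matches to motifs searched on both strands.
C1qb: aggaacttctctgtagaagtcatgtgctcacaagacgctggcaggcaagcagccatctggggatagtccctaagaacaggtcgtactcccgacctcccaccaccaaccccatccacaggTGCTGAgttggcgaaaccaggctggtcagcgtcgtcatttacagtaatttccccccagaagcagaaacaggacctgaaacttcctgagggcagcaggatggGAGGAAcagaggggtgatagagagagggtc
C1qc: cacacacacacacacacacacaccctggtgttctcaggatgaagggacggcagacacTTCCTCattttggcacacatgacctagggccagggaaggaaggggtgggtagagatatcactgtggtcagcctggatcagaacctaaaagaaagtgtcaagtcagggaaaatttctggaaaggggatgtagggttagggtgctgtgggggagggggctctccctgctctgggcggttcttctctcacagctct
C3: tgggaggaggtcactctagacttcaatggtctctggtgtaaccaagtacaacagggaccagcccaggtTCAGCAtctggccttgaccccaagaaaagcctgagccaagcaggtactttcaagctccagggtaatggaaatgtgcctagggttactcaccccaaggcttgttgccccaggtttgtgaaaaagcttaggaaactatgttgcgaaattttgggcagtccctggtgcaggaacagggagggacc
The capitals in C1qb are, from left to right, TGCTGA, which is a half-site bound by MAF proteins, and GAGGAA, a core bound by the myeloid factor PU.1. The match in C1qc is GAGGAA on the other strand, and that in C3 is TGCTGA on the other strand. GAGGAA stands in 23.3% and TGCTGA in 16.1% of 32851 RefSeq promoters of this length, so either match is common. The STAT element TTCNNNGAA (7.02% of promoters), the interferon-stimulated response element (2.98%) and the NF-kB site (1.41%) had no match in these 3 windows. C3ar1 held TGCTGA and the NF-kB site, both on the other strand, and Cfp none of the 5 motifs. No motif overlapped another in these windows. A match is a description of letters only.

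Facts of the whole series bear on what follows. Between 13797 and 15055 named genes were above background on an array, by the flag of the scanner software. Cd300a was not lower on the KO arrays, at 7.88 on WT SPF, 7.91 on KO SPF, 7.60 on WT GF and 8.05 on KO GF. The sources used here do not say whether its probe lies in the deleted part, so the genotype label could not be checked by it and “KO-labelled” is written below. Both SPF arrays were on slide 1 and both GF arrays on slide 2, so housing, slide, scan and labelled sex cannot be told apart, while each genotype pair lies within 1 slide. Xist, made from the inactive X chromosome in females, read 4.87 on WT SPF, 5.45 on KO SPF and 3.62 on KO GF, which is labelled male, and was not above background on WT GF. Genotype in the GF pair thus cannot be told apart from a difference in the sex of the mice or from a mislabelled sample. All 12 dendritic cell markers were above background on the SPF arrays and 11 on the GF arrays, where Xcr1, a marker of cross-presenting dendritic cells, was not. All 17 macrophage markers were above background on every array as well, including Adgre1 (5.44, 5.15, 5.11 and 4.23 in the order WT SPF, KO SPF, WT GF, KO GF).

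All 9 complement genes were above background on all 4 arrays, and none of their spots was flagged as uneven. On the KO-labelled array 3 of 9 genes were at least 2-fold lower under SPF conditions (C2, C4b and Cfb) and 3 of 9 under GF conditions (C1qb, C2 and Cfp), and 0 were higher in either. Among all genes measured, 6.62% were called lower and 5.61% higher under SPF conditions (985 and 835 of 14877). Under GF conditions these shares were 7.78% and 8.78% (1221 and 1378 of 15697). C2 was the only gene of the 9 lower in both, as were 0.648% of all genes (92 of 14202). Because the choice of the genes used this contrast, nothing is read from these counts. The median difference of the 9 was -0.46 under SPF and -0.93 under GF conditions, against -0.06 and -0.20 over all genes. In the brightest quartile of genes the medians were -0.01 and -0.45.

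**Figure D1:**
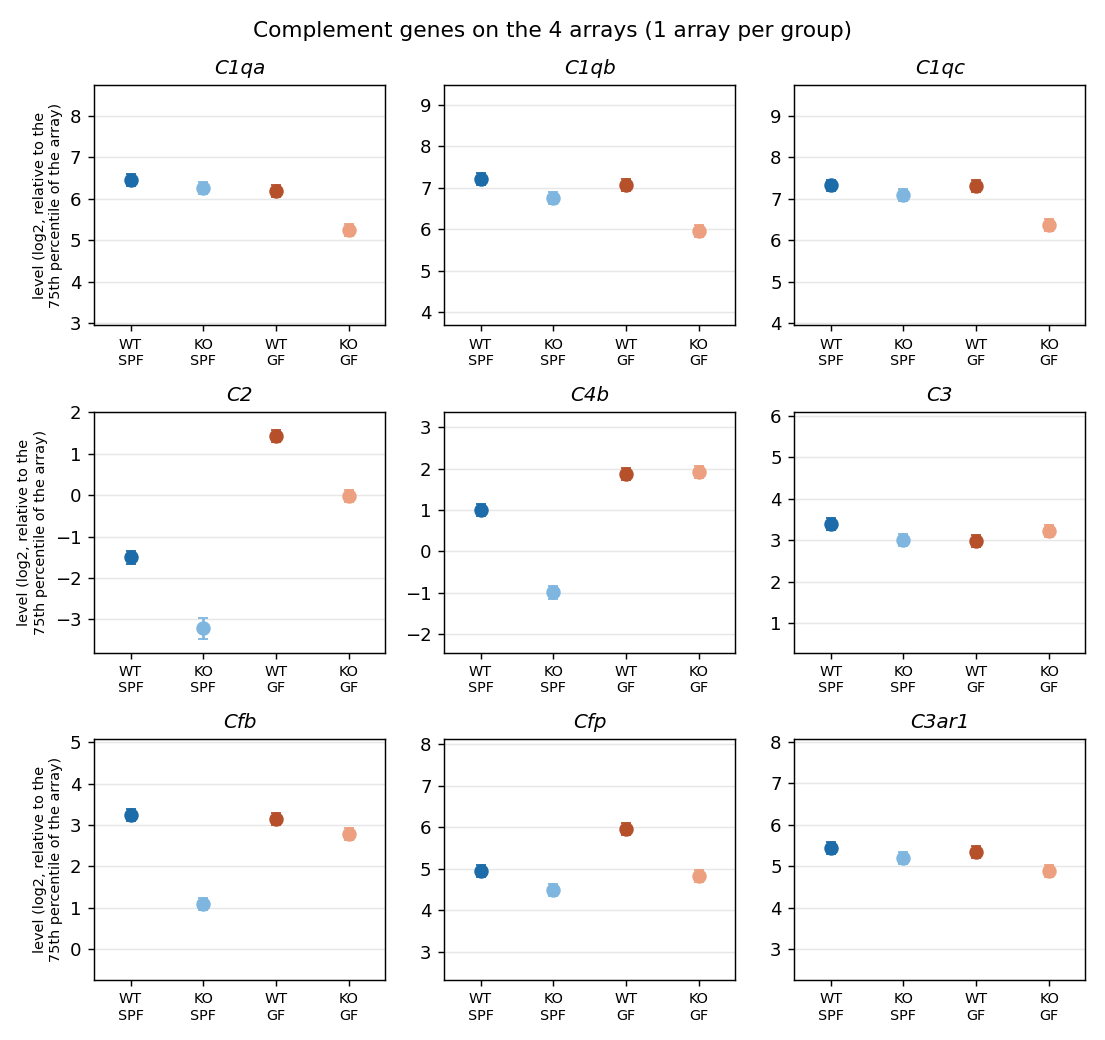
Level of each of the 9 complement genes (log2, relative to the 75th percentile of the array) on the 4 arrays, 1 point per array, with bars for the scanner software's error of the spot. Every panel spans the same height, but levels are comparable within a panel only, since probes differ. C2, C4b and Cfb have their lowest point on KO SPF and the C1q genes theirs on KO GF.

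C2, the serine protease that C4 carries in the classical pathway, read -1.50 on WT SPF, -3.22 on KO SPF, 1.42 on WT GF and -0.02 on KO GF. The processed signals behind these levels were 58.3, 16.9, 507 and 203. Both KO-labelled arrays were thus below the WT array of the same housing, and both GF arrays above both SPF arrays. The genotype difference was -1.71 under SPF conditions (scanner error 0.30), a 3.28-fold lower signal, and -1.44 under GF conditions (scanner error 0.21), 2.70-fold lower. The order was WT GF, KO GF, WT SPF, KO SPF, and each step of it exceeded the scanner error. C2 was dim under SPF conditions. Probes with 5 or more spots at its level on the KO SPF array had a median SD of 0.32 over spots, and C2 had only 1 spot. With another background correction (normexp, which models background instead of subtracting it) the SPF difference was -0.69, less than 2-fold, whereas the GF difference stayed between -1.45 and -1.15 over all settings tried.

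C4b, which encodes the C4 protein cleaved beside C2, read 1.0 on WT SPF, -0.99 on KO SPF, 1.87 on WT GF and 1.91 on KO GF. Its KO SPF array stood apart below the other arrays. The genotype difference was -1.99 (scanner error 0.21), 3.97-fold lower, under SPF conditions and 0.04 under GF conditions, so both GF arrays lay within the scanner error. The probe may also take up RNA of the close paralogue C4a, which had no probe matched here, so its value is uncertain in that respect.

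The C1q chains encode the recognition molecule of the classical pathway, which is assembled from all of them. C1qa read 6.45 on WT SPF, 6.25 on KO SPF, 6.18 on WT GF and 5.23 on KO GF. C1qb read 7.21, 6.75, 7.06 and 5.96 in the same order. C1qc read 7.32, 7.08, 7.30 and 6.37. The KO GF array was the lowest for each chain, and the other arrays lay within 0.46 of each other for each. The C1qc probe is printed as 10 spots on each array, with an SD over spots between 0.035 and 0.057. Under SPF conditions the genotype differences were -0.20 for C1qa, -0.46 for C1qb and -0.24 for C1qc, all under 2-fold. Under GF conditions they were -0.95, -1.10 and -0.93, of which only C1qb passed 2-fold, and under quantile, cyclic loess, median centring and the scaling of the deposited table it did not (-0.90 to -0.67).

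The C1q chains had nearly the same pattern over the arrays. Each gene's 4 levels were centred on their own mean, and the likeness of a pair was the root mean square of the differences between them over the 4 arrays. C1qb and C1qc differed by 0.11, C1qb and C1qa by 0.14 and C1qa and C1qc by 0.14. Among 12883 other genes above background on all arrays, C1qc ranked 58 and C1qa ranked 126 by likeness to C1qb, so other genes were as close. The nearest were Nsmce3, Parp8, Ano6, Gdpd3, Pdcd2l and Arpc4. With 4 points that share slides, such a likeness is a description only.

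C3, the central component that all pathways cleave, is read by 2 probes. The brighter probe, which stands for the gene and has 1 spot, read 3.40 on WT SPF, 3.01 on KO SPF, 2.99 on WT GF and 3.23 on KO GF. The other probe, with 10 spots, read 3.36, 2.81, 3.10 and 2.39, with an SD over spots between 0.037 and 0.066. The probes read the same order on the SPF arrays and opposite orders on the GF arrays. The genotype difference was -0.39 by the first and -0.55 by the second probe under SPF conditions. Under GF conditions it was 0.24 by the first and -0.71 by the second, so C3 has no settled direction there. Neither probe gave a 2-fold difference in any pair.

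**Figure D2:**
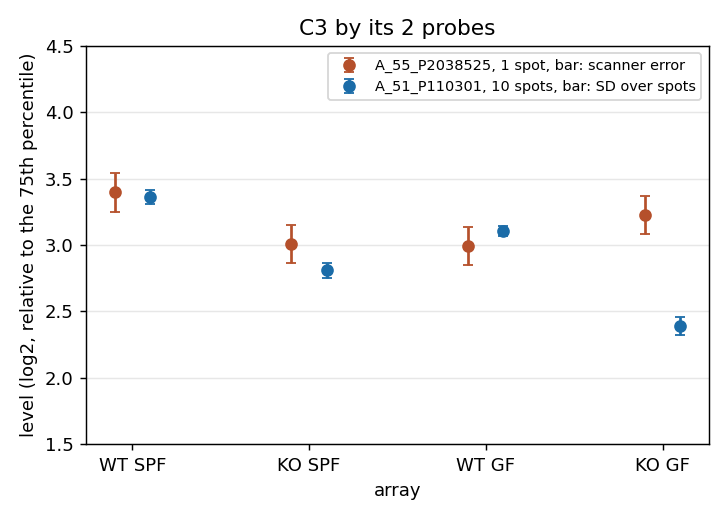
C3 by both of its probes on the 4 arrays (log2, relative to the 75th percentile of the array). Bars are the scanner software's error for the probe with 1 spot and the SD over spots for the probe with 10. From WT GF to KO GF the probe with 1 spot goes up by 0.24 and the probe with 10 spots down (-0.71); levels are comparable within a probe only.

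Cfb encodes factor B, the protease of the alternative pathway. It read 3.23 on WT SPF, 1.1 on KO SPF, 3.15 on WT GF and 2.77 on KO GF, from processed signals of 1554, 338, 1686 and 1409. As for C4b, the KO SPF array stood below the others. The genotype difference was -2.13 under SPF conditions, 4.38-fold lower, and -0.38 under GF conditions. Over all settings the SPF difference lay between -2.21 and -1.94.

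Cfp encodes properdin, which stabilizes the alternative pathway enzyme and which myeloid cells make and store. It read 4.94 on WT SPF, 4.48 on KO SPF, 5.96 on WT GF and 4.83 on KO GF, and the WT GF array was the highest. The genotype difference was -0.46 under SPF and -1.13 (2.19-fold lower) under GF conditions. The GF value was under 2-fold with quantile, cyclic loess, median centring and deposited-table scaling (-0.92 to -0.73). C3ar1, the receptor for the peptide freed from C3, read 5.45, 5.21, 5.34 and 4.88, with differences of -0.24 and -0.46. Its range over the arrays was narrow, and no pair was 2-fold apart.

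**Figure D3:**
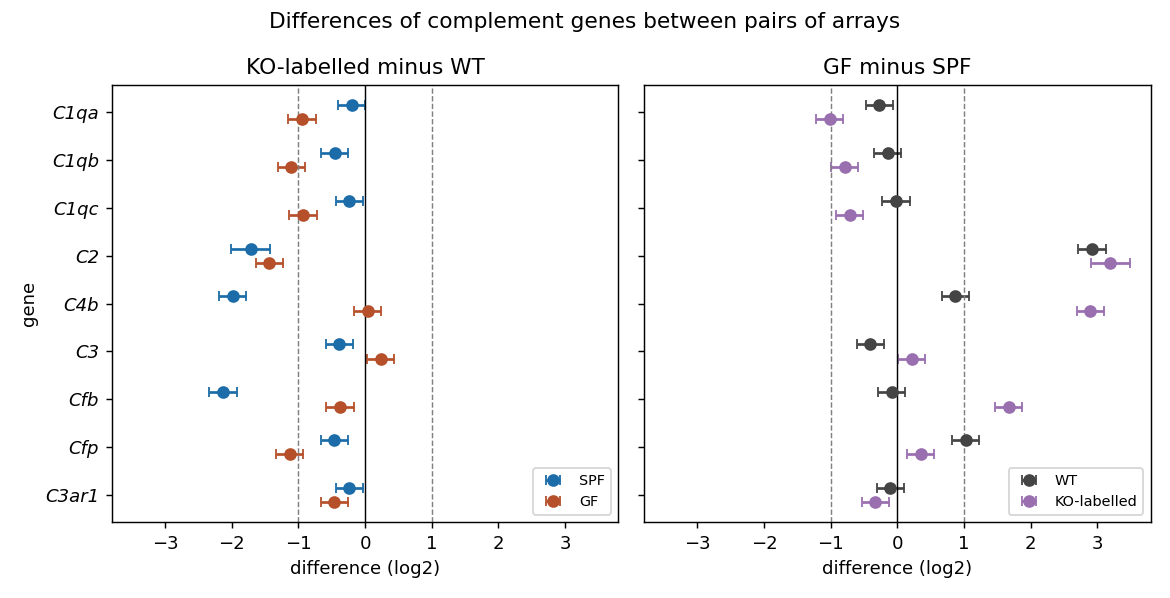
Differences of the 9 complement genes between pairs of arrays (log2), KO-labelled minus WT on the left and GF minus SPF on the right, with bars for the scanner software's error of the difference. Dashed lines mark 2-fold. C2 is left of the line in both housings, C4b and Cfb under SPF conditions only, and C2 is right of it in both genotypes.

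Markers of other cells differed within the same genotype pairs. Their summed signal was put on the same log2 scale as a level. Under SPF conditions the macrophage sum was 10.62 on WT and 10.56 on the KO-labelled array, the dendritic cell sum was 9.64 and 9.69, and the fibroblast and smooth muscle sum was 4.78 and 4.08. The monocyte sum was 6.19 and 5.73, and the B and plasma cell sum was 4.42 and 6.63. Such sums are carried by a few bright genes, and single markers differed more. On that pair 3 of 17 macrophage markers were at least 2-fold higher (Timd4, Cd163 and Cd14) and 0 lower, with a median of -0.25. Of 12 dendritic cell markers 3 were higher (Ccr7, Zbtb46 and Xcr1) and 0 lower. Of 5 neutrophil markers 3 were lower (S100a9 at -2.02, Cxcr2 at -1.20 and S100a8 at least 2.13-fold) and 0 higher. B and plasma cell RNA was higher on the KO-labelled array. Under GF conditions the macrophage sum was 10.52 on WT and 10.01 on the KO-labelled array and the dendritic cell sum 9.23 and 8.52, so both were lower alongside the C1q genes. The endothelial sum was lower too, at 3.71 and 2.997, with 4 of 6 markers at least 2-fold lower and a median of -1.11. Of 17 macrophage markers 3 were at least 2-fold lower and 0 higher under GF conditions, with a median of -0.62. Of 11 dendritic cell markers 3 were lower and 0 higher, with a median of -0.75. Of all genes 6.49% were lower and 6.97% higher on that pair, with a median of -0.20. The brightest quartile of genes had a median of -0.45 there. The part of these markers in the complement differences was not tested.

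Genes that encode interferon-induced proteins were set beside C2, C4b and Cfb, since interferon-gamma is known to raise these genes in macrophages. Of 20 measured genes of an interferon-gamma-induced list, 6 were at least 2-fold lower and 0 higher on the KO-labelled array under SPF conditions (median -0.53). Of all genes 3.98% were lower and 4.75% higher on that pair (median -0.06). Under GF conditions 7 of 21 were lower and 0 higher (median -0.88), against 6.49% and 6.97% of all genes (median -0.20). The lowest under SPF conditions were the GTPase genes Gbp6 (-0.25 on WT and -1.93 on the KO-labelled array) and Igtp (0.97 and -0.35), and the highest were Cxcl10 (3.10 and 3.84) and Gbp5 (-1.24 and -0.91). Ifng itself was dim, at -2.92 on WT SPF and -3.07 on KO SPF. On the GF array in WT cells 1 of 21 listed genes was at least 2-fold higher than on SPF and 4 lower (median -0.21). The shares of all genes were 15.2% and 7.68%. In KO-labelled cells 0 of 21 were higher and 7 lower (median -0.34), against 17.9% and 14.5% of all genes. C2 went the other way, at 2.92 in WT and 3.20 in KO-labelled cells. C4b was also higher on GF in both, and Cfb in KO-labelled cells only. These lists share arrays with the complement genes, and their part in the result was not tested.

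C2, Cfb and C4b lie close together in the class III region of the mouse major histocompatibility complex. Of 14 measured neighbours in that region 1 was at least 2-fold lower and 0 higher on the KO-labelled array under SPF conditions (median -0.31). The one was Tnxb, at least 2.92-fold lower and below background there. Of all genes 3.98% were lower and 4.75% higher on that pair. Under GF conditions 2 of 15 were higher and 2 lower (median -0.36), against 6.97% and 6.49% of all genes. The lowest there were the heat-shock genes Hspa1a (-2.08) and Hspa1l (-1.47), and the highest were Slc44a4 (1.26) and Tnxb (1.21).

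The rule that chose the genes did not use the housing contrast, but earlier results of these data were known when they were chosen. Of the 9, 2 were at least 2-fold higher and 0 lower on the GF array in WT cells (C2 and Cfp), where 17.5% of all genes were higher and 9.44% lower. In KO-labelled cells 3 were higher (C2, C4b and Cfb) and 1 lower (C1qa), where 21.6% of all genes were higher and 15.4% lower. Such shares are near the background, so the counts show nothing particular to complement. C2 was the only gene of the 9 higher in both genotypes, as were 11.2% of all genes. The medians of the 9 were -0.08 and 0.22, against 0.13 and 0.05 over all genes.

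C2 was 2.92 higher (7.57-fold) on the GF array in WT cells and 3.20 higher (9.18-fold) in KO-labelled cells. In limma, with genotype as a block and 15029 genes, its housing difference was 3.06 (SE 0.39, Benjamini-Hochberg adjusted p = 0.000208), higher in both pairs. It was called under every setting tried, with a difference of 1.81 to 3.21. C4b rose by 1.88 (SE 0.49, limma adjusted p = 0.0218), from differences of 0.87 in WT and 2.9 in KO-labelled cells. That call was lost with normexp (adjusted p = 0.0634), quantile (0.0558), cyclic loess (0.0959), median centring (0.122) and the deposited table (0.0986). Limma called 11.4% of all genes higher and 5.20% lower. The residual of this fit, 1 degree of freedom, is the interaction of genotype and housing, so the SE says nothing of spread among replicates. That interaction is the gap between the KO minus WT differences under SPF and under GF conditions. C2 was chosen on these differences, so its SE and adjusted p-value are not independent of the choice. On simulated data the fit let through more false calls than its threshold states, so its adjusted p-values are too small.

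The other 7 genes did not pass limma's threshold. Cfb differed by 0.80 (adjusted p = 0.284) and Cfp by 0.69 (0.278). C1qa differed by -0.64 (0.321), C1qb by -0.47 (0.475) and C1qc by -0.37 (0.587). C3 was at -0.09 (0.902) and C3ar1 at -0.22 (0.755), and the signs of C1qc, C3 and C3ar1 change under at least 1 other scaling. The C3 value is from its probe with 1 spot, at -0.41 in WT and 0.22 in KO-labelled cells. The C3 probe with 10 spots was lower on the GF array in both, at -0.26 and -0.42. Cfb was 1.67 higher (3.19-fold) on the GF array in KO-labelled cells and at -0.08 in WT cells, a value that changes sign under another scaling. C1qa was 1.01 lower (2.02-fold) on the GF array in KO-labelled cells, but under 2-fold with normexp, quantile, cyclic loess and deposited-table values (-0.93 to -0.43). Cfp was 1.03 higher (2.04-fold) in WT cells, but under 2-fold with normexp, median centring and the deposited table (0.882 to 0.998).

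Marker sums also differed between housings. The epithelial sum was 6.06 on WT SPF, 6.15 on KO SPF, 8.30 on WT GF and 8.89 on KO GF. Krt20, a keratin of mature gut epithelium, read -3.53, -4.22, 5.68 and 5.67. Pigr carried the SPF sums, at 5.96 and 6.02, and read 5.81 and 5.73 on the GF arrays. Of 12 epithelial markers 10 were at least 2-fold higher on the GF array in WT cells (median 4.16) and 11 in KO-labelled cells (median 4.97). None was 2-fold lower, and 15.2% and 17.9% of all genes were higher. The macrophage sum was similar on WT SPF and WT GF, at 10.62 and 10.52, and was 10.56 on KO SPF and 10.01 on KO GF. Single macrophage genes differed more. Of 17 markers 7 were at least 2-fold higher and 0 lower on WT GF than on WT SPF (median 0.60). Of all genes 15.2% were higher and 7.68% lower. In KO-labelled cells 4 were higher and 2, Cd14 (-1.80) and Csf1r (-1.13), lower (median -0.51), against 17.9% and 14.5% of all genes. Folr2 and Lyve1 rose the most. Folr2 read -0.15, -0.40, 4.11 and 3.47, and Lyve1, another gene of tissue-resident macrophages, read -2.38, -2.63, 3.36 and 3.23. The dendritic cell marker Itgax, also a subunit of a receptor for cleaved C3, read 4.32, 4.44, 3.19 and 2.15. The part of these cells in the rise of C2 was not tested.

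**Figure D4:**
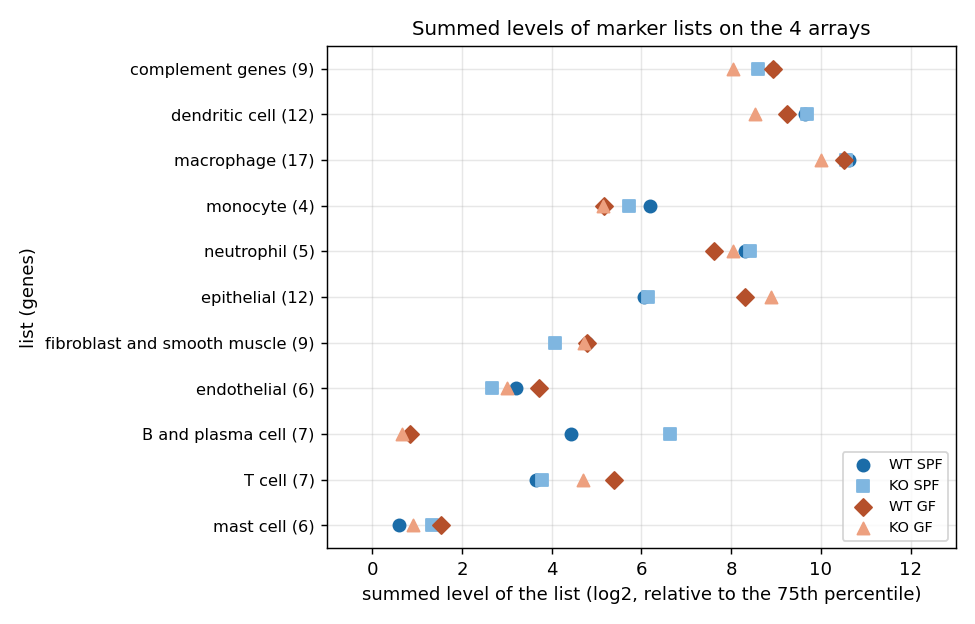
Summed level of each marker list (log2, relative to the 75th percentile of the array) on the 4 arrays, with the number of matched genes in brackets and the 9 complement genes on top. The epithelial sum is higher on both GF arrays (8.30 and 8.89) than on both SPF arrays (6.06 and 6.15). Pigr carries the SPF sums (5.96 and 6.02). The complement, dendritic cell and macrophage sums are lowest on KO GF. The complement sum is carried mostly by the C1q genes, whereas C2, C4b, Cfb and Cfp are each lowest on KO SPF.

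The genes whose pattern over the 4 arrays was most like that of C2 were Mmp9 (root mean square difference 0.39), Pla2g2d (0.42), Gpt2 (0.47), Cp (0.48), Epor (0.49) and 2610035D17Rik (0.51), of 12883 genes. Mmp9 encodes a secreted protease of neutrophils and macrophages, and Cp the copper protein ceruloplasmin. Mmp9 read -0.86 on WT SPF, -1.67 on KO SPF, 1.95 on WT GF and 0.91 on KO GF, in the same order of arrays as C2. The sum of neutrophil markers, a list that holds Mmp9, was 8.31, 8.41, 7.62 and 8.03. Csf3r carried that sum, at 8.30, 8.41, 7.59 and 8.02. S100a9 of the same list read 1.36 on WT SPF, -0.65 on KO SPF and -1.90 on WT GF. On KO GF it was below background, and S100a8 and Cxcr2 were so on both GF arrays. Among the 9, C4b ranked 46, Cfb 760 and Cfp 1110 by likeness to C2, at root mean square differences of 0.79, 1.20 and 1.27. In the other direction C2 ranked 923 by likeness to C4b, 11089 to Cfb and 12363 to Cfp. Such ranks are a description only.

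The rest of the pathway was followed in a list of 46 other complement genes, of which 45 were matched. Many of these are dim, so a gene below background on 1 array of a pair was counted at its bound, the fold over the dimmest signal that array could tell from background. Between genotypes under SPF conditions the KO-labelled array had 1 of 27 measured genes at least 2-fold higher and 2 lower, against 4.75% and 3.98% of all genes counted the same way. The higher one was Masp2, a protease of the lectin pathway (1.36). C6 of the membrane-piercing complex (-1.49) and the protease-like C1rl (-1.26) were lower. The C1 protease gene C1ra read 3.23 on WT SPF, 2.30 on KO SPF, 2.88 on WT GF and 2.25 on KO GF. C1s1 read -0.41, -1.36, -0.20 and -0.10, and Serping1, the inhibitor of both proteases, 2.20, 1.34, 2.61 and 2.51. These 3 genes were each lower on KO SPF than on WT SPF by less than 2-fold.

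Under GF conditions the KO-labelled array had 3 of 36 other complement genes at least 2-fold higher and 4 lower, against 6.97% and 6.49% of all genes. The membrane regulator gene Cd59b was at least 15.1-fold, the lectin pathway protease gene Masp1 at least 5.09-fold and the factor D gene Cfd at least 2.28-fold higher, all of them below background on WT GF. Clusterin (Clu, -1.64), vitronectin (Vtn, -1.27), Itgax (-1.04) and the membrane regulator Cd55 (-1.01) were lower.

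By size alone, the GF array had 9 of 31 other complement genes at least 2-fold higher and 1 lower than the SPF array in WT cells, against 15.2% and 7.68% of all genes counted with bounds. In KO-labelled cells it had 11 of 35 higher and 1 lower, against 17.9% and 14.5%. Limma called 8 of 30 tested genes of the list higher on the GF arrays and 1 lower, against 11.4% and 5.20% of all genes. Fcna, a ficolin that starts the lectin pathway, read -3.17 on WT SPF, -2.58 on KO SPF, 2.51 on WT GF and 1.98 on KO GF (5.11 higher, limma adjusted p = 8.08e-06). Both GF arrays were above both SPF arrays. Cfhr2 (1.76), Cd55 (2.14) and Cd55b (2.33) were also called higher. Vsig4, a macrophage receptor for cleaved C3, was below background on both SPF arrays, and its GF level was at least 10.96-fold higher in WT and at least 4.83-fold higher in KO-labelled cells. The other genes called higher were Colec11, Cpn1 and Vtn, all below background on both SPF arrays, and these calls were lost with normexp values. Itgax was the one called lower (-1.71, limma adjusted p = 0.0171), a call lost with cyclic loess, median centring and the deposited table.

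**Figure D5:**
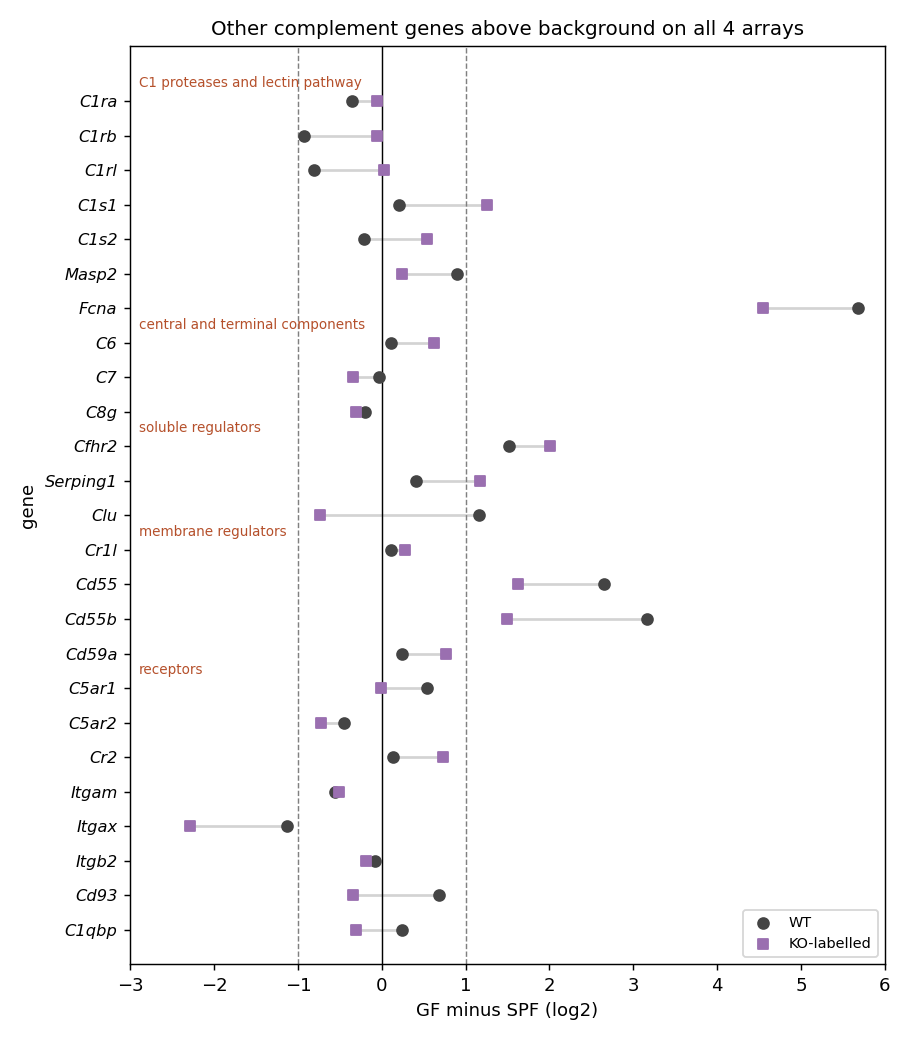
Difference GF minus SPF (log2) of the 25 other complement genes above background on all 4 arrays, grouped by role, in WT and in KO-labelled cells, with dashed lines at 2-fold. Fcna (5.68 in WT and 4.55 in KO-labelled cells), Cfhr2 (1.51 and 2.0) and the Cd55 genes are right of the line in both, and Itgax (-1.13 and -2.29) is left of it in both.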

How the data were processed

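The 4 deposited scanner files hold a processed signal intensity per spot, background-subtracted by Agilent Feature Extraction 10.10.1.1 per the file headers (protocol GE1_1010_Sep10). Per the labels' protocols, RNA was amplified as cDNA and labelled with Cy3. A deposited table of intensity values equals these signals times 1 constant per array (8.30, 8.24, 7.08 and 7.96), on a linear, uncentred scale. The rule behind the constants is unknown, and the column medians were 237.2, 216.3, 235.7 and 331.4.

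Control spots (3671) and flagged spots were left out, spots of a probe averaged, and log2 values set against the 75th percentile over probes of the array. Accessions were matched to RefSeq, and the brightest of several probes stood for a gene. A gene counted as above background where at least as many of its spots were flagged well above it as were not. Below background on 1 array, "at least" folds use the higher of the dim value and the lowest signal well above background there. Counts of the 9 and of all genes beside them use measured values. Those of other complement genes, interferon-gamma-induced genes, class III neighbours and cell markers, with the shares beside them, use these bounds. Limma 3.58.1 (R 4.3.3) tested housing with genotype as a block on 15029 genes above background on 2 or more arrays, two-sided, with Benjamini-Hochberg adjustment and a threshold of 0.05. On simulated data this fit let through more false calls than its threshold states. The 9 genes and all lists were chosen with earlier results of these data known. Named were all 9, the other complement genes with the largest differences, the nearest to C2 and C1qb, and the extremes of the lists. An item of the list of other complement genes is not reported here and was left out of its counts. Normexp (offset 50) used median signals. The number of arrays limits the precision.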

Additional observations from a re-analysis of the deposited data

Results flagged for a closer look

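C4b differed by -1.99 between KO-labelled and WT cells under SPF conditions and by 0.039 under GF conditions, so the sign differs between the housings. Cfb differed between GF and SPF conditions by -0.082 in WT cells and by 1.67 in KO-labelled cells, again with opposite signs. With 1 array per group neither difference between the differences could be tested, and for each gene 1 of both values is within the scanner error of 0.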

How the results depend on the processing

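Over the alternatives tried, no difference of a complement gene that was at least 2-fold changed sign. The SPF difference of C2 fell under 2-fold with normexp (-0.69). The number of the 9 genes at least 2-fold different between genotypes under GF conditions was 1 in place of 3 with quantile, cyclic loess, median centring and deposited-table values. Between housings in WT cells it was 1 in place of 2 with normexp, median centring and the deposited table. Limma called 1 gene (C2) in place of 2 with normexp, quantile, cyclic loess, median centring and the deposited table. The scaling of the deposited table moves the median of all genes by 0.29 for the GF genotype pair and by 0.34 for housing in KO-labelled cells, and median centring by 0.21 for the GF genotype pair and by -0.15 for housing in WT cells. In the GF genotype pair 1221 genes were lower and 1378 higher, against 571 and 2291 with the deposited table, 694 and 2017 with median centring, 359 and 288 with normexp, and 811 and 512 when only genes detected on every array were kept. In the SPF pair 985 were lower and 835 higher, against 93 and 176 with normexp, 334 and 443 for genes detected on every array, and 1141 and 724 with the deposited table. For housing in WT cells 1478 were lower and 2740 higher, against 453 and 997 with normexp, 874 and 1508 for genes detected on every array, and 1905 and 2346 with median centring. In KO-labelled cells 2397 were lower and 3368 higher, against 1258 and 1214 with normexp, 1973 and 1773 for genes detected on every array, and 1501 and 4613 with the deposited table. Limma called 1710 genes higher and 781 lower, against 835 and 449 with normexp, 1036 and 383 with median centring, 1154 and 422 with cyclic loess, 1277 and 289 with the deposited table and 1995 and 1304 with an intensity trend and robust prior. The use of the C3 probe with 10 spots was chosen after seeing the data. The cause of these changes was not tested. Dim genes such as C2 on KO SPF are limited by their signal over background. No paired analysis was possible because each group has 1 array and the labels number no replicates; the genotype block in limma pairs arrays by genotype and not by replicate.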
